A study of Mus musculus with 15 samples.

Results

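The TGF-β signaling genes described here were the 7 genes of a 561-gene immune panel that encode the ligand Tgfb1, the receptors Tgfbr1 and Tgfbr2, the signal transducers Smad3 and Smad5, the SMAD inhibitor Ski and the secreted TGF-β-induced protein Tgfbi. They were chosen by gene symbol, and all 7 were found on the panel. RNA was measured in RAW 264.7 cells, a mouse macrophage line, that had been cultured for 24 h with lipopolysaccharide (LPS) and with extracellular vesicles (EVs) from mouse plasma. The EV donors were C57BL/6J mice, either sham mice or mice sampled 3 or 7 days after whole-body irradiation (WBIR) with 2 Gy or with 9 Gy. This gave 5 groups of 3 samples, named by the EVs the macrophages received: sham, 2 Gy day 3, 2 Gy day 7, 9 Gy day 3 and 9 Gy day 7.

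All 15 samples shared the cell line, the LPS and, per the labels, a dose of 30000000 EVs, while the study's methods give a smaller number. There were no cells without EVs or without LPS, so each difference is between EVs of irradiated and sham donors in LPS-activated cells of 1 line. Replicates 1 and 2 of the 9 Gy day 3 group carried a day label of 7 and were placed at day 3 by their titles. Neither the labels nor the methods say that replicates were separate cultures or separate EV preparations, so p-values measure only the spread between these samples, which may be technical.

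TGF-β1 is secreted in a latent complex, and once active it binds TGFBR2, which recruits and phosphorylates TGFBR1. TGFBR1 phosphorylates SMAD3 and its partner SMAD2, which enter the nucleus with SMAD4, whereas SMAD5 mainly transduces bone morphogenetic protein signals. SKI binds SMAD complexes and represses their targets, and in macrophages the pathway is known for restraining inflammatory activation and for its part in tissue repair.

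Depth set how well each gene could be read. Total counts were between 453178 and 837995 in the 12 samples outside the 9 Gy day 3 group and between 43176 and 87899 within it. Samples were put on one scale through 14 housekeeping genes, whose geometric mean was 454 to 545 in the sham samples, 69.2 to 124 in the 9 Gy day 3 samples and 801 to 872 in the 9 Gy day 7 samples. A single raw count was therefore worth 0.753 to 0.903 normalized counts in sham, 3.30 to 5.93 in 9 Gy day 3 and 0.471 to 0.512 in 9 Gy day 7. Among macrophage markers, 10 of 14 were on the panel, and Cd14, the LPS co-receptor, averaged 2937 ± 1030 normalized counts in sham (SD, n = 3), 1272 ± 534 in 9 Gy day 3 and 1162 ± 375 in 9 Gy day 7. Itgam, an integrin chain of myeloid cells, averaged 245 ± 48.6 in sham, 72.4 ± 7.21 in 9 Gy day 3 and 80.8 ± 5.31 in 9 Gy day 7, while Csf1r, the receptor for macrophage colony-stimulating factor, averaged 26.3 ± 8.70, 133 ± 29.0 and 97.4 ± 12.6. The summed markers were 7323 to 11129 in sham, 5027 to 6928 in 9 Gy day 3 and 5069 to 6482 in 9 Gy day 7. The 3 platelet markers on the panel held at most 13 raw counts in any sample. The 12 T and NK cell markers summed to 176 to 225 normalized counts in sham and 101 to 118 in 9 Gy day 7, led by Cd8a, and the 8 B cell markers to 200 to 246 and 161 to 199, led by Blnk. The part of these shifts in the results below was not tested, and in bulk RNA fewer expressing cells and less RNA per cell cannot be told apart.

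Mean raw counts over the 15 samples were 1335 for Tgfb1, 107 for Tgfbr2, 25.5 for Smad5, 24.5 for Ski, 12.6 for Smad3, 9 for Tgfbr1 and 6.67 for Tgfbi. Each gene has its own probe, so these means describe how well a gene was measured and do not rank the genes by expression. Only the first 4 reached the mean of 20 counts needed to enter the main test, which ran on 269 of the 561 genes. The other 3 entered a fit without that filter, over all 561 genes, in which neither Tgfbr1 nor Tgfbi was called in any comparison, and no fold is given for them. No control probes were used here, so the level of background was not measured. Of genes that a macrophage line should lack, the platelet markers held 1 to 10 raw counts in sham and 4 to 9 in 9 Gy day 7. Tgfbr1 held 10 to 19 and 6 to 16 in these groups, and Tgfbi 5 to 13 and 9 to 11. The T and NK cell markers held 2 to 125 in sham and 2 to 124 in 9 Gy day 7, with 9 and 10 of 12 under 20 counts in every sample of the group, and Cd8a the highest.

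**Figure D1:**
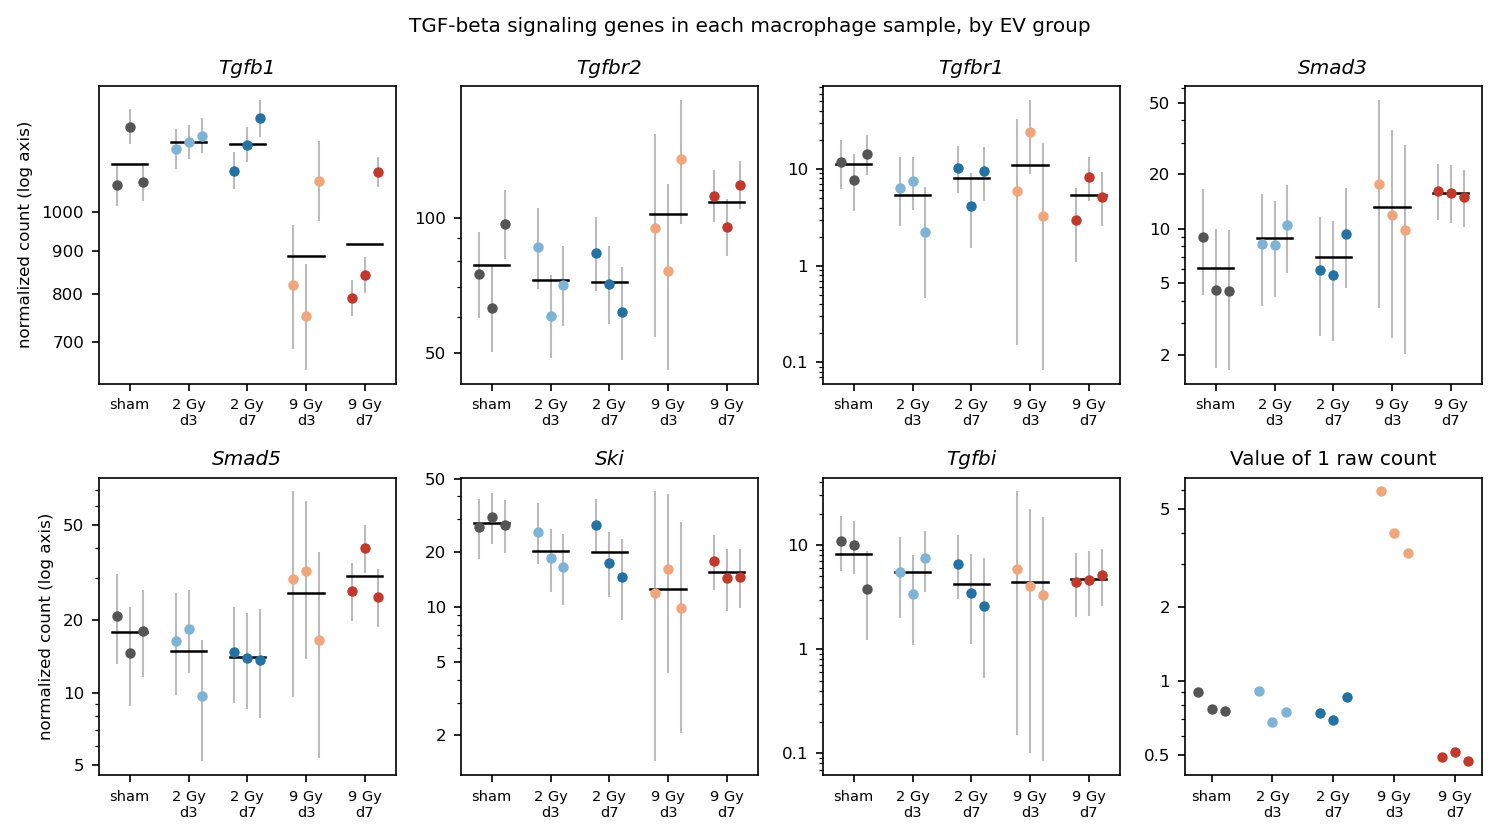
Normalized counts (log axes) of the 7 TGF-β signaling genes in each of the 15 samples, by EV group, with the mean of each group as a black line and the 95% Poisson interval of each count as a grey line, which covers counting error only. The last panel plots the normalized value of 1 raw count, highest in the 9 Gy day 3 samples at 3.30 to 5.93, where the intervals of Smad3, Smad5 and Ski are widest.

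Promoters are shown for the genes called higher with 9 Gy EVs (Tgfbr2, Smad3 and Smad5) and for the inhibitor Ski, as the sequence context of the genes the results turn on. Each line holds the 250 bases before the first start site in RefSeq (GRCm38.p6), read 5′ to 3′ on the gene's own strand. They are Tgfbr2 at chr9:116175364-116175613 on the minus strand, Smad3 at chr9:63757995-63758244 on the minus strand, Smad5 at chr13:56702760-56703009 on the plus strand and Ski at chr4:155222536-155222785 on the minus strand. Capitals mark CAGAC, the core of a SMAD binding element, and GGCGC, a GC-rich SMAD element, on either strand.
Tgfbr2: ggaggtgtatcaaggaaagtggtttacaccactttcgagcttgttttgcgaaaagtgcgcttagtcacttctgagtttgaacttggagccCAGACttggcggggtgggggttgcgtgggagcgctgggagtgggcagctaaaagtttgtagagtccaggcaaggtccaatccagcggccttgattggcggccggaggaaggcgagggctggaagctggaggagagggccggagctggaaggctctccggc
Smad3: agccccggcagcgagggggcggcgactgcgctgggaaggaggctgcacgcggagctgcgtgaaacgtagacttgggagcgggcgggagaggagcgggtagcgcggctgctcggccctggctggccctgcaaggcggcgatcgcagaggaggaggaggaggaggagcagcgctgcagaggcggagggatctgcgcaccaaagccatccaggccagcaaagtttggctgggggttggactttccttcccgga
Smad5: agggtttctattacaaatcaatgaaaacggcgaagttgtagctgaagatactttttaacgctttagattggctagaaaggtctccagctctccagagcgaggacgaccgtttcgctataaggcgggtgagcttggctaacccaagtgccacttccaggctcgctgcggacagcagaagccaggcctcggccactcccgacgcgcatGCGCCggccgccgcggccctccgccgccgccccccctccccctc
Ski: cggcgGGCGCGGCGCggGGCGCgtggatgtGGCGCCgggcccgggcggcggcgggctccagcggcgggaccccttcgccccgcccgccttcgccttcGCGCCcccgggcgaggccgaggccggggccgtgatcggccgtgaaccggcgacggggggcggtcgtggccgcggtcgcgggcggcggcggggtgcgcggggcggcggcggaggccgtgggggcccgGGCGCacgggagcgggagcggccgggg
The Tgfbr2 window held 1 CAGAC and no GGCGC, and the Smad3 window held neither. The Smad5 window held 1 GGCGC, and the Ski window, at 87.6% G and C, held 7 matches to it, some of which overlap. Of 32851 RefSeq promoter windows of this length, 42.2% held CAGAC and 32% held GGCGC, so holding a match did not set these genes apart. The median window held 0 matches to GGCGC, and how many windows hold as many as Ski was not counted. The AP-1 motif TGANTCA was in 6.75% of windows and in none of those of the 7 genes. These are letter matches in a short window and say nothing of binding.

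The ligand Tgfb1 was the most strongly counted of the 7 genes, and its change against sham was called or not, and in either direction, depending on the setting. In the main test, on the housekeeping scale, no change against sham was called. Its normalized counts were 1076, 1264 and 1085 in the sham samples, 1188, 1212 and 1233 in 2 Gy day 3, and 1120, 1203 and 1294 in 2 Gy day 7. They were 818, 753 and 1090 in 9 Gy day 3 and 790, 842 and 1117 in 9 Gy day 7. In order of the mean, 2 Gy day 3 (1211 ± 22.4, SD, n = 3), 2 Gy day 7 (1205 ± 87.1) and sham (1141 ± 106) lay close together, above 9 Gy day 7 (916 ± 176) and 9 Gy day 3 (887 ± 179). Only the step from sham to 9 Gy day 7 was wider than either SD, and there the samples overlapped, since replicate 3 of each 9 Gy group lay within the sham range.

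By the quasi-likelihood test of edgeR, adjusted by Benjamini-Hochberg over the 269 genes, Tgfb1 differed from sham by a log2 fold change of -0.36 (SE 0.16, adjusted p = 0.0763) in 9 Gy day 3 and -0.32 (SE 0.16, adjusted p = 0.0994) in 9 Gy day 7. It was called lower without 9 Gy day 3 replicate 3 (-0.54, adjusted p = 0.0142), without 9 Gy day 7 replicate 3 (-0.48, adjusted p = 0.0164), in 9 Gy day 3 with counts under 20 set to 20 (-0.67, adjusted p = 0.00469) and in 9 Gy day 7 with the samples of conflicting labels placed there (-0.40, adjusted p = 0.0134), all in edgeR. In 9 Gy day 3 Tgfb1 was also called lower with the replicate number as a block over all groups (-0.38, adjusted p = 0.0437 in edgeR). With 9 Gy EVs against 2 Gy EVs, over both days, Tgfb1 was lower by a log2 fold change of -0.42 (SE 0.11, adjusted p = 0.00487 in the same test), and all 6 samples with 9 Gy EVs lay below all 6 with 2 Gy EVs, as in 36.1% of tested genes. That direction belonged to the housekeeping scaling. As a share of all counts, Tgfb1 was 0.214% in sham, 0.335% in 9 Gy day 3 and 0.365% in 9 Gy day 7, and after scaling to total counts it was higher with 9 Gy than with 2 Gy EVs by 0.70 (adjusted p = 2.6e-06 in the edgeR test), while scaling to the median gene left 0.024. Against sham, scaling to total counts likewise called Tgfb1 higher in 9 Gy day 3 (0.65, adjusted p = 2.9e-04) and in 9 Gy day 7 (0.77, adjusted p = 5.4e-05), both in edgeR. The call was also lost without the 9 Gy day 3 samples with conflicting labels (-0.27, adjusted p = 0.0796).

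The receptor Tgfbr2, which binds the active ligand first, was higher with 9 Gy EVs than with 2 Gy EVs. Its normalized counts were 75.0, 63.1 and 97.1 in sham, 86.0, 60.6 and 71.0 in 2 Gy day 3, and 83.5, 71.2 and 61.7 in 2 Gy day 7. They were 94.8, 76.1 and 135 in 9 Gy day 3 and 112, 95.3 and 119 in 9 Gy day 7. The 9 Gy day 7 samples overlapped sham through sham replicate 3. In order, the means were 109 ± 12.1 in 9 Gy day 7, 102 ± 30.3 in 9 Gy day 3, 78.4 ± 17.3 in sham, 72.5 ± 12.8 in 2 Gy day 3 and 72.1 ± 10.9 in 2 Gy day 7, and no neighbours in that order were apart by more than their spread.

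For 9 Gy against 2 Gy EVs the log2 fold change of Tgfbr2 was 0.55 (SE 0.16, adjusted p = 0.00836, edgeR's quasi-likelihood test), with some overlap between the groups, and the call held under 15 of 15 other settings and without any 1 of the 12 samples. That test counts all samples of a dose as independent, though same-numbered samples of day 3 and day 7 deviated together. Against sham, the log2 fold change was 0.40 (SE 0.25, adjusted p = 0.181) in 9 Gy day 3 and 0.47 (SE 0.21, adjusted p = 0.0698) in 9 Gy day 7 in the same edgeR test. With scaling to the median gene, edgeR called Tgfbr2 higher at each day, with 0.88 (adjusted p = 0.0135) and 0.96 (adjusted p = 0.00240). At day 7 it also did so without sham replicate 3 (0.66, adjusted p = 0.0281 in edgeR). Against sham, Tgfbr2 was called higher under 8 of 15 other settings at day 7 and under 4 of 15 at day 3.

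The signaling receptor Tgfbr1 had low counts that overlapped those of the platelet markers. Its raw counts were 13, 10 and 19 in sham, 7, 11 and 3 in 2 Gy day 3, 14, 6 and 11 in 2 Gy day 7, 1, 6 and 1 in 9 Gy day 3 and 6, 16 and 11 in 9 Gy day 7. Normalized counts lay between 7.69 and 14.3 in sham and between 2.24 and 7.49 in 2 Gy day 3, which did not overlap, as was so in the same direction for 6.42% of the 561 genes. The other groups overlapped sham. In 9 Gy day 3, where Tgfbr1 stood at 1 count in 2 samples, a single count was worth up to 5.93 normalized counts, and a difference was not detectable at this depth.

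Among the signal transducers, Smad3, which carries the TGF-β signal, was higher with 9 Gy day 7 EVs than with sham EVs. The raw counts were 10, 6 and 6 in sham and 33, 31 and 32 in 9 Gy day 7. They were 9, 12 and 14 in 2 Gy day 3, 8, 8 and 11 in 2 Gy day 7, and 3, 3 and 3 in 9 Gy day 3, where a count of 3 has a 95% Poisson interval of 0.619 to 8.77. The sham counts of Smad3 lay within the range of the platelet markers, 1 to 10, and its counts in 9 Gy day 7 lay above the platelet markers but below Cd8a, at 74 to 124, and Lck, at 46 to 55, markers of T cells. How far Smad3 exceeded background in either group cannot be read from these counts.

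The normalized counts of Smad3 were 9.03, 4.61 and 4.52 in sham, 8.24, 8.17 and 10.5 in 2 Gy day 3, and 5.91, 5.58 and 9.43 in 2 Gy day 7. They were 17.8, 12.0 and 9.91 in 9 Gy day 3 and 16.2, 15.9 and 15.1 in 9 Gy day 7. All 6 samples with 9 Gy EVs lay above the 3 sham samples, as in 8.38% of the 561 genes for 9 Gy day 3 and 7.13% for 9 Gy day 7. The means fell in the order 9 Gy day 7 (15.7 ± 0.596), 9 Gy day 3 (13.2 ± 4.08), 2 Gy day 3 (8.96 ± 1.30), 2 Gy day 7 (6.97 ± 2.13) and sham (6.05 ± 2.58), with a step wider than either SD only between 9 Gy day 3 and 2 Gy day 3, whose samples overlapped.

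In edgeR's test without the count filter, the counts of Smad3 were higher with 9 Gy day 7 EVs by a log2 fold change of 1.40 (SE 0.26, 95% interval 0.85 to 1.95, adjusted p = 4.3e-04). With no background subtracted and sham at such low counts, this fold compares the deposited counts and does not give the size of a change in Smad3 mRNA. Of the 561 genes in that fit 43.3% were called and 5.53% were called higher. The call was kept under 12 of 13 other settings and without any 1 of the 6 samples, and it was lost (0.028) when counts under 20 were set to 20, a floor above every sham count. In 9 Gy day 3 the log2 fold change was 1.07 (SE 0.56, adjusted p = 0.216 in edgeR, where 22.8% of the 561 genes were called), and in 2 Gy day 3 and 2 Gy day 7 it was 0.60 and 0.21. The 9 Gy day 3 change was called under 3 of 13 other settings, which gave 0.56 to 2.07, and was never called with a single sample left out. Smad3 was also higher with 9 Gy than with 2 Gy EVs (0.83, SE 0.29, adjusted p = 0.0351 in edgeR, where 38.0% of the 561 genes were called and 7.13% called higher), a call that was lost without any 1 of 6 of the 12 samples, at adjusted p values up to 0.119, and with the samples of conflicting labels placed at day 7 (0.66, adjusted p = 0.345) or left out (0.67, adjusted p = 0.342), in edgeR.

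Smad5, the transducer of bone morphogenetic protein signals, was higher with 9 Gy day 7 EVs than with sham EVs. Its normalized counts were 20.8, 14.6 and 18.1 in sham, 16.5, 18.4 and 9.71 in 2 Gy day 3, and 14.8, 14 and 13.7 in 2 Gy day 7. They were 29.6, 32.0 and 16.5 in 9 Gy day 3 and 26.6, 39.9 and 25 in 9 Gy day 7, the latter from 54, 78 and 53 raw counts. All 3 samples of 9 Gy day 7 lay above all sham samples, as in 12.6% of tested genes and 7.13% of the 561 genes. In 9 Gy day 3 the third replicate lay within the sham range. The means ran from 30.5 ± 8.24 in 9 Gy day 7 through 26.1 ± 8.36 in 9 Gy day 3, 17.8 ± 3.09 in sham and 14.9 ± 4.56 in 2 Gy day 3 to 14.1 ± 0.558 in 2 Gy day 7, and no neighbours in that order lay apart by more than the larger SD.

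Smad5 rose against sham by a log2 fold change of 0.78 (SE 0.25, 95% interval 0.23 to 1.32, adjusted p = 0.0160, edgeR's quasi-likelihood test) in 9 Gy day 7, and by 0.93 (SE 0.23, adjusted p = 0.00293) in 9 Gy against 2 Gy EVs. In 9 Gy day 3 against sham it was 0.50 (SE 0.38, adjusted p = 0.275 in edgeR). It was called there with total counts (1.52, adjusted p = 0.0110 in edgeR). The call was also made with counts under 20 set to 20 (1.91, adjusted p = 9.6e-06 in edgeR), which lifts every 9 Gy day 3 count of Smad5. Smad5 reached the filter's mean of 20 counts through the 9 Gy day 7 samples, the only ones in which its count was over 30, so the filtered test is no independent support. In the fit without the filter, 9 Gy day 7 against sham gave 0.78 (adjusted p = 0.0210, edgeR over 561 genes), and 9 Gy against 2 Gy EVs gave 0.93 (adjusted p = 0.00592). The settings that follow were run with the filter. The day 7 call rested on single samples: it was lost without 9 Gy day 7 replicate 2 (0.53, adjusted p = 0.0861), without sham replicate 2 (0.65, adjusted p = 0.0613) and with the replicate block fitted to the compared groups (0.76, adjusted p = 0.0744), all in edgeR. The call against 2 Gy EVs held without any 1 of the 12 samples and was lost with both samples of conflicting labels left out (0.63, adjusted p = 0.160) or placed with day 7 (0.63, adjusted p = 0.154), in edgeR.

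The inhibitor Ski was lower with 9 Gy EVs than with sham EVs at both days once counts were scaled to the 14 housekeeping genes. Its normalized counts were 27.1, 30.8 and 27.9 in sham, 25.6, 18.4 and 16.4 in 2 Gy day 3, and 28.1, 17.4 and 14.6 in 2 Gy day 7. They were 11.9, 16 and 9.91 in 9 Gy day 3, from only 2, 4 and 3 raw counts, and 17.7, 14.3 and 14.6 in 9 Gy day 7. The sham samples stood above all 9 Gy samples, as they did for 43.9% of tested genes in 9 Gy day 3 and 49.1% in 9 Gy day 7, and the 2 Gy samples reached from the sham range down to that of 9 Gy day 7. The means fell in the order sham (28.6 ± 1.94), 2 Gy day 3 (20.1 ± 4.84), 2 Gy day 7 (20.03 ± 7.12), 9 Gy day 7 (15.5 ± 1.87) and 9 Gy day 3 (12.6 ± 3.12), and the first step alone was wider than either SD.

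Ski fell by a log2 fold change of -1.19 (SE 0.38, 95% interval -2.01 to -0.37, adjusted p = 0.0187, edgeR's quasi-likelihood test) in 9 Gy day 3 and by -0.88 (SE 0.23, 95% interval -1.37 to -0.38, adjusted p = 0.00506) in 9 Gy day 7. With 2 Gy EVs it was -0.52 (SE 0.24) at day 3, with all 3 samples below sham, and -0.50 (SE 0.24) at day 7, and neither passed the adjusted edgeR test. Between 9 Gy and 2 Gy EVs the log2 fold change was -0.52 (SE 0.24, adjusted p = 0.0642 in edgeR). The raw counts of Ski overlapped between sham (30, 40 and 37) and 9 Gy day 7 (36, 28 and 31), and its fall at day 7 appeared once they were divided by the higher housekeeping counts of that group. The platelet markers, whose raw counts also overlapped, had lower normalized means in 9 Gy day 7 as well, with Itga2b at 4.83 in sham and 2.48, Ppbp at 4.86 and 2.93, and Gp1bb at 3.95 and 3.26, and the part of a fixed background in the fall of Ski was not tested. With scaling to the median gene it was -0.38 (adjusted p = 0.225 in edgeR) at day 7 and -0.71 (adjusted p = 0.204) at day 3, and with total counts 0.23 at day 7. At day 3 it was -0.72 with TMM (adjusted p = 0.201 in edgeR) and -0.71 in DESeq2 (adjusted p = 0.285 in that test). Neither of these settings called Ski at day 7. Without 9 Gy day 3 replicate 3 the day 3 call was lost (-0.996, adjusted p = 0.107 in edgeR). It was also lost with the housekeeping genes of at least 100 counts (-1.01, adjusted p = 0.0603) and with the samples of conflicting labels moved to day 7 (-1.52, adjusted p = 0.0857) or dropped (-1.52, adjusted p = 0.0888), in edgeR.

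The target Tgfbi, an extracellular matrix protein named for its induction by TGF-β, had low counts in every group. Raw counts were 12, 13 and 5 in sham, 6, 5 and 10 in 2 Gy day 3, 9, 5 and 3 in 2 Gy day 7, 1, 1 and 1 in 9 Gy day 3 and 9, 9 and 11 in 9 Gy day 7. Normalized means were 8.20 ± 3.86 in sham, 5.46 ± 2.03 and 4.24 ± 2.14 in the 2 Gy groups, and 4.41 ± 1.36 and 4.74 ± 0.393 in the 9 Gy groups. The 9 Gy day 3 mean is that of the lowest value in the deposited data, and no difference was detectable at this depth.

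**Figure D2:**
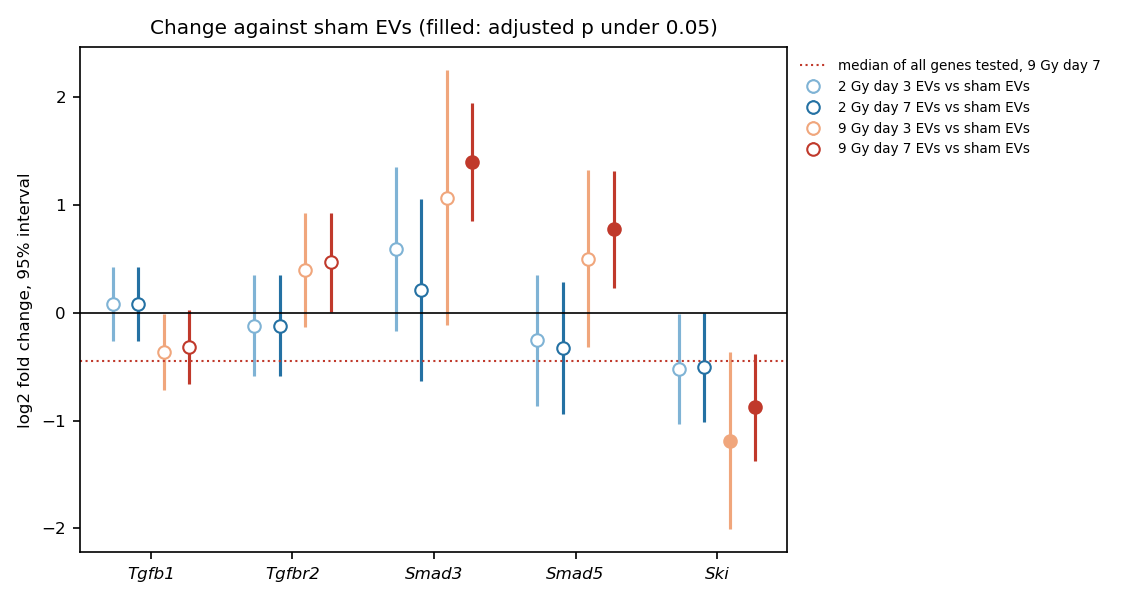
Log2 fold changes against sham EVs with 95% intervals for Tgfb1, Tgfbr2, Smad3, Smad5 and Ski with EVs of each of 4 irradiated groups, filled where the adjusted p was under 0.05 and with the median of all tested genes at 9 Gy day 7 (-0.45) as a dotted line. Filled points are Smad3 (1.40) and Smad5 (0.78) at 9 Gy day 7 and Ski at both 9 Gy days (-1.19 and -0.88).

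Among the tested genes, the 2 Gy comparisons against sham held no call in the main test. In 2 Gy day 3 and in 2 Gy day 7 against sham, 0 of the 4 tested TGF-β signaling genes and 0% of the 269 genes passed the adjusted edgeR test, and DESeq2 also called 0. In the fit without the filter, 1 of the 561 genes was called in 2 Gy day 7, lower, and it was not a member. At an unadjusted p under 0.05, 1 of the 4 passed at day 3 (Ski) and 0 at day 7, beside 2.60% and 0.372% of all tested genes. All 3 samples of Ski at day 3 lay below sham, as did those of 8.18% of tested genes.

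With 9 Gy day 3 EVs 1 of the 4 tested genes was called, Ski, where 52.4% of all tested genes were, 11.2% higher and 41.3% lower. Before adjustment, 2 of 4 members and 58.7% of tested genes had a p under 0.05 there, 3 of 4 and 65.8% in 9 Gy day 7, and 4 of 4 and 70.3% in 9 Gy against 2 Gy EVs. With 9 Gy day 7 EVs 2 of 4 were called, Smad5 higher and Ski lower, where 61.0% of tested genes were called, 11.9% higher and 49.1% lower. For 9 Gy against 2 Gy EVs 3 of 4 were called, Tgfbr2 and Smad5 higher and Tgfb1 lower, where 67.7% of tested genes were called, 15.6% higher and 52.0% lower. The 4 tested genes are not all members, and Smad5 was among them through its 9 Gy day 7 counts. In the fit without the filter, 1 of all 7 was called in 9 Gy day 3, where 22.8% of the 561 genes were, 3 of 7 in 9 Gy day 7, where 43.3% were, and 4 of 7 in 9 Gy against 2 Gy EVs, where 38.0% were. With so few genes, these counts do not set the TGF-β signaling genes apart from the panel. The 4 comparisons against sham share the same 3 sham samples and are not independent.

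The panel as a whole moved down on the housekeeping scale, and members are best read against that shift. Over the 269 genes, the median log2 fold change was -0.46 in 9 Gy day 3, -0.45 in 9 Gy day 7 and -0.45 in 9 Gy against 2 Gy EVs, while that of the 4 tested members was 0.02, 0.08 and 0.07. Over all 7 members in the fit without the filter, the medians were -0.019, -0.32 and 0.25, beside -0.39, -0.64 and -0.45 for the 561 genes. Counted from the highest fold change of the 269, Smad5 ranked 23, Tgfbr2 41, Tgfb1 113 and Ski 181 in 9 Gy day 7 against sham. Relative to the median gene, Tgfbr2 therefore lay above it, and Ski below. Smad5 also lay above it, but it was among the 269 through its 9 Gy day 7 counts, so its rank is no support. Scaling to the median gene moved the median fold change at 9 Gy day 7 from -0.45 to 0.03 and the called genes from 32 higher and 132 lower to 76 higher and 77 lower. The called members then were 2 higher, Tgfbr2 and Smad5, and 0 lower. With total counts the split was 143 higher and 31 lower.

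**Figure D3:**
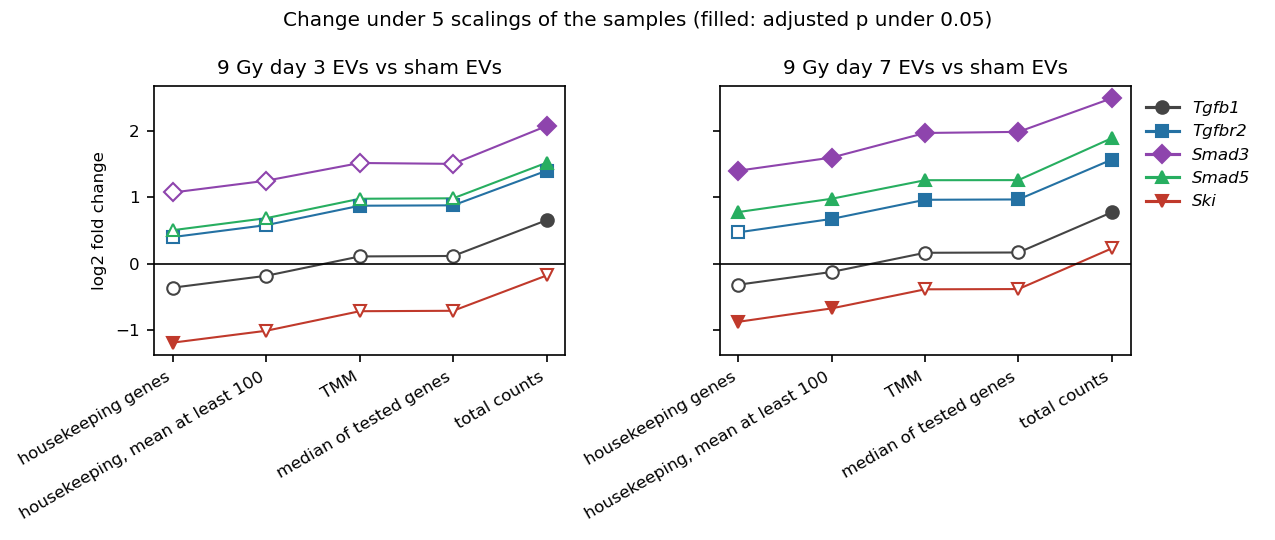
Log2 fold changes of 5 genes with 9 Gy day 3 EVs (left) and 9 Gy day 7 EVs (right) against sham under 5 ways of scaling the samples, filled where the adjusted p was under 0.05. Smad3, Smad5 and Tgfbr2 lie above 0 under all 5, while Tgfb1 moves from -0.32 to 0.77 and Ski from -0.88 to 0.23 at day 7.

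Ratios of 2 genes within a sample do not depend on the scaling. The log2 ratio of Tgfbr2 to Tgfb1 counts, a pair chosen after the values were seen, was between -3.31 and -2.82 in all 6 samples with 9 Gy EVs and between -4.39 and -3.48 in the other 9. Its mean exceeded that of sham by 0.74 in 9 Gy day 3 and by 0.82 in 9 Gy day 7, and with single samples left out these ranged from 0.52 to 0.94 and from 0.60 to 1.02. In each 2 Gy group it was -0.19 against sham, a value that fell to -0.41 without sham replicate 2 and was 0.0075 at day 3 and 0.013 at day 7 without sham replicate 3. The ratio thus separated the 9 Gy samples from the rest, but the pair was chosen on these values and no test is given. How many other gene pairs separate the same samples was not counted. Of all tested genes, 67.7% were called in 9 Gy against 2 Gy EVs, so the separation is not read as particular to this pair.

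In the other 3 pairs most groups overlapped sham. The ratio of Smad3 to Smad5 differed from sham by 0.93, 0.56, 0.66 and 0.70 in the 4 irradiated groups in the order of dose and day, with SDs within groups of 0.35 to 0.69, and stood wholly above sham (-2.00 to -1.20) only in 2 Gy day 3 (-1.17 to 0.11). With single samples left out it ranged from 0.54 to 1.17, 0.30 to 0.77, 0.47 to 0.88 and 0.51 to 0.91. The ratio of Tgfbr1 to Tgfbr2 differed from sham by -1.09, -0.45, -0.85 and -1.61, and stood wholly below sham (-3.04 to -2.67) only in 9 Gy day 7 (-5.25 to -3.54). It rested on the low counts of Tgfbr1 and on single samples: -0.85 in 9 Gy day 3 became -0.0070 without replicate 3, -1.85 without replicate 2 and -0.26 with 1 added to each count, and -0.45 in 2 Gy day 7 became -0.037 without replicate 2. In 2 Gy day 3, -1.09 became -0.56 without replicate 3. With single samples left out it ranged from -2.06 to -1.20 in 9 Gy day 7. The ratio of Tgfb1 to Tgfbi differed by 0.60, 1.00, 0.41 and 0.32, overlapped sham in each group, ranged with single samples left out from 0.29 to 1.06, 0.65 to 1.46, 0.070 to 0.87 and 0.0053 to 0.77, and in 9 Gy day 3 it rested on Tgfbi counts of 1.

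**Figure D4:**
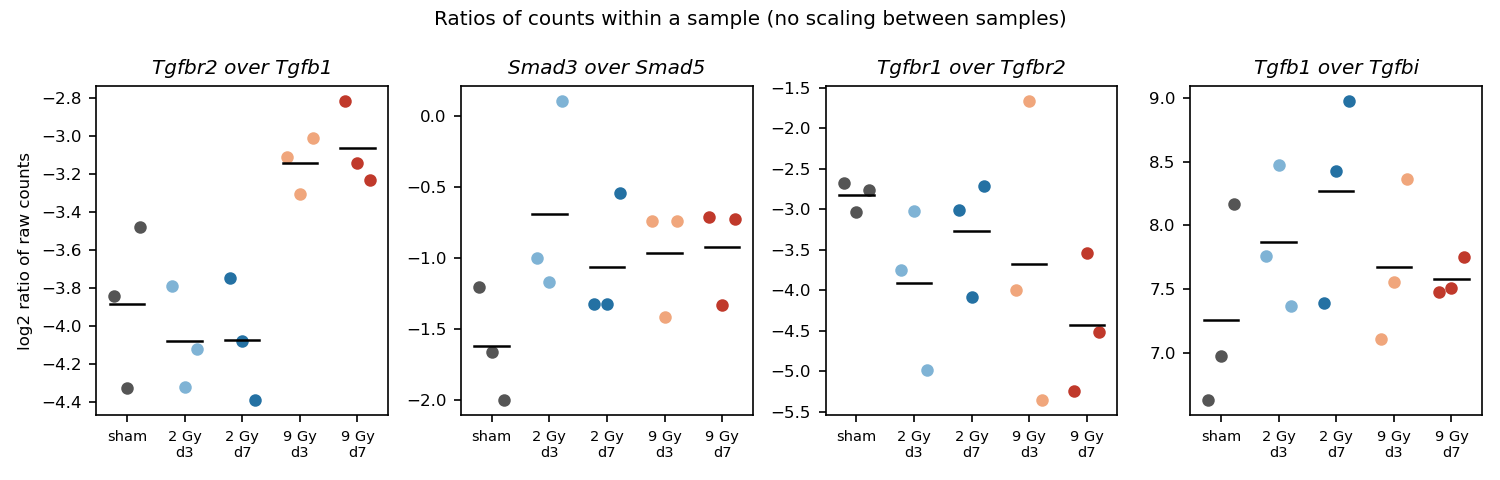
Log2 ratios of raw counts of 4 gene pairs in each sample, by EV group, with group means as black lines. Tgfbr2 over Tgfb1, a pair chosen after the values were seen, separates the 6 samples with 9 Gy EVs (-3.31 to -2.82) from the other 9 (-4.39 to -3.48). In the other 3 pairs only Smad3 over Smad5 in 2 Gy day 3 and Tgfbr1 over Tgfbr2 in 9 Gy day 7 stand clear of sham.

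Measured by group means against each of the 13 tested housekeeping genes alone, Ski was lower than sham in 9 Gy day 7 for 13 of 13, Smad3 higher for 12, Smad5 higher for 11, Tgfbr2 higher for 10 and Tgfb1 higher for 6. All samples stood above sham for 11 with Smad3, 9 with Smad5, 7 with Tgfbr2 and 2 with Tgfb1. These genes also set the main scale, so this is no separate support, and other panel genes were not counted this way. For Ski the change ran from -2.53 on the log2 scale, against the tubulin gene Tubb5, to -0.01. Tubb5 gave the lowest value for each of these members, with Tgfb1 at -1.97. With Tubb5 left out of the scale, the median of all tested genes in 9 Gy day 7 was -0.32 and 3 members were called. In 9 Gy day 3 Ski was lower for 13 and Smad3 higher for 12, with Smad5 and Tgfbr2 each higher for 10 and Tgfb1 for 6.

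Between day 7 and day 3 no tested member was called for either dose in the main test, and DESeq2 called none. edgeR called 0% of the 269 genes in 9 Gy day 7 against day 3 and in 2 Gy day 7 against day 3, and 2.23% and 1.49% had an unadjusted p under 0.05, among them 0 of the 4 members. Same-numbered replicates deviated together between the days of each dose, and with the replicate number as a block in the compared groups edgeR called 27 of 269 genes in 2 Gy day 7 against day 3, 24 higher and 3 lower, and 0 in 9 Gy, with 0 of 4 members in each. With the block fitted over all groups it called 0 genes in either. The test of whether the 9 Gy to 2 Gy difference itself changed with day also called 0 of 4 members and 0% of genes, with 0 of 4 and 1.49% at an unadjusted p under 0.05. With counts under 20 set to 20, edgeR called 99 of 269 genes in 9 Gy day 7 against day 3, 31 higher and 68 lower, with 2 members lower. In the test of the dose difference by day it then called 62 genes, 5 higher and 57 lower, with 2 members lower. The low counts of 9 Gy day 3 bound what these comparisons could show.

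The wider pathway was thinly covered. Of 38 other ligands, receptors, latency genes and SMADs of the TGF-β superfamily, only Tgfb2 and Tgfb3 were on the panel, with raw counts of 1 to 11 and 1 to 24, and neither was tested. Of 26 SMAD cofactors and partner transcription factors 15 were on the panel and 8 were tested. With 9 Gy day 7 EVs 3 of these 8 fell, 0 rose and 5 did not pass the test, with a median log2 fold change of -0.34 beside -0.45 for all tested genes, of which 49.1% were called lower and 11.9% higher. Irf7, an interferon-induced transcription factor, fell most, from 3951 ± 328 to 770 ± 250 normalized counts (log2 fold change -2.36, SE 0.25, adjusted p = 4.6e-06, edgeR). Bcl6, a transcriptional repressor, fell by -0.82 (SE 0.24, adjusted p = 0.00980), and Runx1, a hematopoietic transcription factor, by -0.77 (SE 0.30, adjusted p = 0.0395), in the same edgeR test. With 9 Gy day 3 EVs 3 of the 8 fell and 1 rose, Rela, an NF-κB subunit (0.55, SE 0.21, adjusted p = 0.0397, edgeR), where 41.3% of all tested genes fell and 11.2% rose. In 9 Gy against 2 Gy EVs 2 fell and 1 rose, again Rela (0.41, SE 0.14, adjusted p = 0.0166, edgeR), where 52.0% fell and 15.6% rose.

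Of 22 kinases and adaptors of the non-SMAD branch 6 were on the panel and 4 were tested. Src, a tyrosine kinase, was the 1 that fell at each 9 Gy day (-1.26 at day 7, SE 0.25, adjusted p = 5.9e-04, edgeR), and 3 did not pass, where 41.3% of all tested genes fell at day 3 and 49.1% at day 7. In 9 Gy against 2 Gy EVs Src also fell (-1.35, SE 0.19, adjusted p = 2.5e-05) and Traf6, an adaptor and ubiquitin ligase, rose (1.45, SE 0.50, adjusted p = 0.0200, edgeR) from raw counts that went as low as 2, where 52.0% of tested genes fell and 15.6% rose. Rela and Traf6 were named after their values were seen. Of 21 genes known to respond to TGF-β 7 were on the panel and 3 were tested, among them Ski and Runx1, the 2 that fell in 9 Gy day 7, where 49.1% of all tested genes did, and Cdkn1a, a cell cycle inhibitor, at -0.06. The fall of Ski was not past the threshold with scaling to the median gene or to total counts, as above. In the main test, no gene of these lists was called with 2 Gy EVs or between days. The lists were not counted under other settings.

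The genes whose profiles lay nearest to each member were found by the mean absolute difference of log2 normalized counts relative to sham over the 15 samples. Nearest to Tgfb1 were Lilrb4 (0.0860), Cd9 (0.0924) and the housekeeping gene Eef1g (0.122), where the median gene lay at 0.425. Nearest to Tgfbr2 were Ifi204 (0.155), the housekeeping gene Alas1 (0.176) and Psmd7 (0.200), against a median of 0.576. For Smad5 they were Alas1 (0.253), Cd109 (0.286) and Rae1 (0.301), and for Ski they were Xbp1 (0.283), Nfkbia (0.300) and Il6st (0.312), against medians of 0.666 and 0.586. Genes in the same 15 samples share their scaling, so these distances are a description.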

How the data were processed

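RNA of RAW 264.7 macrophages was counted on a nanoString nCounter mouse immunology panel, and the authors deposited raw counts per gene for 561 genes in 15 samples, with no control probes and a lowest count of 1. Each count was scaled to the geometric mean of 14 housekeeping genes, a choice made here. The study's methods name nSolver for normalization. In R 4.3.3, edgeR 4.0.16 (glmQLFit and glmQLFTest, with limma 3.58.1) was fitted to all 5 groups over the 269 genes whose mean reached 20 counts, with Benjamini-Hochberg adjustment, a threshold of 0.05 and a prior count of 0.125. SEs and 95% intervals were derived from the fit's p. Intervals of counts are exact Poisson intervals, and they cover counting error only. No background was subtracted, and since the housekeeping scale differs between groups, a fixed background in raw counts would itself differ after scaling. DESeq2 1.42.0, other scalings, filters, a replicate block, both readings of the conflicting day labels and leaving out each sample were alternatives. The fits were tested on simulated data in which no housekeeping gene was changed, so that test could not show an error of the housekeeping scale.

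The 7 members and all lists were chosen with earlier results of these data known. Named beyond the members were, of each pathway list, up to 3 called genes with the largest change at 9 Gy day 7, the 3 nearest profiles of each tested member, and marker genes. The ratio of Tgfbr2 to Tgfb1 and the single housekeeping genes were added after the data were seen. Replicate numbers, whose meaning the labels do not give, went with correlated deviations (over 0.1 in every pair) in 2 of 10 pairs of groups, the 2 days of 2 Gy (0.397 to 0.783) and the 2 days of 9 Gy (0.354 to 0.733). These day comparisons count as paired and are also given with the block, which the main test left out. The 9 Gy against 2 Gy test counts all samples of a dose as independent, and leaving out a single sample keeps its same-numbered partner in. No 2 samples held identical counts.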

Additional observations from a re-analysis of the deposited data

How the results depend on the processing

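Tgfbr2 was past the threshold as higher in 9 Gy against 2 Gy EVs under each setting run, and Smad5 and Smad3 were higher at 9 Gy day 7 under each, if not always past the threshold. Scaling decided the direction of Tgfb1: scaled to the median gene, by TMM, to total counts and in DESeq2 its log2 fold change was 0.12, 0.11, 0.65 and 0.12 in 9 Gy day 3, 0.17, 0.16, 0.77 and 0.17 in 9 Gy day 7, and 0.024, 0.039, 0.70 and 0.028 in 9 Gy against 2 Gy EVs. With total counts Ski was at 0.23 in 9 Gy day 7 and 0.60 in 9 Gy against 2 Gy EVs. With counts under 20 set to 20, which lifts every 9 Gy day 3 count of Ski to 20, Ski was at 1.25 in 9 Gy day 3 and 0.68 in 9 Gy against 2 Gy EVs, and Smad3 at -0.042 and -0.059 in 2 Gy day 3 and day 7. Smad5 in 9 Gy day 3 was -0.10 when the samples of conflicting labels were moved to day 7, and -0.10 when they were dropped. With single samples left out, Tgfbr2 ranged from -0.25 to 0.069 in 2 Gy day 3 and from -0.26 to 0.068 in 2 Gy day 7, above 0 without sham replicate 3, and Smad3 in 2 Gy day 7 ranged from -0.039 to 0.57. Where no cause is named here, the cause was not tested.

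The number of called members in 9 Gy day 3, 1 as reported, was 3 with total counts, 3 with counts under 20 set to 20, 2 with the replicate block over all groups, and 0 with housekeeping genes of at least 100 counts, with a filter at a mean of 100 (which leaves Ski and Smad5 out) and with the samples of conflicting labels moved or left out. With scaling to the median gene, TMM and DESeq2 it was also 1, but this was Tgfbr2 as higher, and Ski was not called. In 9 Gy day 7, 2 as reported, it was 0 with the filter at 100, 1 with the replicate block over the compared groups, and 1 to 3 when samples were left out singly, 1 being without 9 Gy day 7 replicate 2 or without sham replicate 2. It was 3 with total counts, housekeeping genes of at least 100 counts, housekeeping genes without Tubb5 and no filter. It was also 3 with counts under 20 set to 20, the replicate block over all groups and the conflicting samples at day 7. With scaling to the median gene, TMM and DESeq2 it was 2, both higher, and Ski was not called. In 9 Gy against 2 Gy EVs, 3 as reported, it was 1 without the samples of conflicting labels, 3 to 4 with single samples left out, 4 without the filter and with counts under 20 set to 20, and 2 with scaling to the median gene, TMM, DESeq2, housekeeping genes of at least 100 counts, the filter at 100 and the conflicting samples at day 7. With counts under 20 set to 20, 2 members were called in 9 Gy day 7 against day 3 and 2 in the dose by day test. The replicate block over all groups also took Tgfbr2 past the threshold in 9 Gy day 7 (0.48, adjusted p = 0.0384, edgeR) and Tgfb1 in 9 Gy day 3 (-0.38, adjusted p = 0.0437). With 1 added to each count, the Tgfb1 to Tgfbi ratio in 9 Gy day 3 was -0.42 against sham.

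Over all tested genes, calls in 9 Gy day 3 were 141 as reported, and 74 and 78 with the samples of conflicting labels moved and left out. Settings for the folds of Tgfbr1 and Tgfbi, and for folds between days, were not run, since no such fold is reported. Depth limits the 9 Gy day 3 group most, in which 190 to 246 of 561 genes stood at a count of 1.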
